A study of Cicer arietinum with 24 samples.

Results

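The leaf-restricted genes of chickpea (Cicer arietinum) described here were 51 of 23943 genes (0.213%) in the small-seeded cultivar Himchana 1. They were chosen by their own transcript levels, as genes with at least 5 FPKM in leaf and under 0.5 FPKM at each of 7 stages of seed development. FPKM is the number of fragments per kilobase of transcript, scaled to the number of mapped fragments of the library. The 23943 genes were those with a chickpea identifier of their own that occurred once in the tables. Since the leaf and seed values made the choice, the values below are a description, and no test of leaf against seed was made. The working name of these genes calls them silent in seeds, which the values do not settle. None of the 51 was listed at 0 at all 7 stages, but values this low were of unknown precision.

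The samples were leaves and whole seeds at stages S1 to S7, with 3 replicates labelled for each of the 8 tissues (24 samples). The leaves came from field-grown plants and were collected while the seeds were in mid-maturation. S1, S2 and S3 were early-, mid- and late-embryogenesis, S5 was mid-maturation and S7 was late-maturation, while S4 and S6 lay between their neighbours. All samples were of 1 genotype without a mutation or a treatment, so leaf and seed differed in organ and in age. The deposited tables held 1 merged FPKM value per gene and tissue, hence there was no replicate error and no p-value for any difference. The sequencing depth was unknown and low values were of unknown precision.

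A leaf is built around photosynthesis, with chloroplast proteins, light harvesting and carbon fixation as its main tasks. A legume seed first forms the embryo and its covering tissues, then fills the cotyledons with storage proteins and starch, and finally dries. Legume embryos and pods are green for part of their growth, and many genes of photosynthesis are therefore also transcribed in young seeds. The tables pair no gene name with these identifiers, and a RefSeq table of 29938 chickpea genes matched 0 of them, so the genes are given by identifier with no function, position or sequence. For the same reason the leaf library could not be checked against leaf marker genes.

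Some features of the libraries bear on the choice. The 75th percentile of FPKM over all rows, those at 0 included, was 11.2 in leaf and 10.7 to 11.7 in the seed libraries. Rows at 0 numbered 10132 in leaf, 7977 at S2 and 12642 at S7. Over rows above 0, bringing the 75th percentile to that of leaf took factors from 0.666 (S7) to 1.24 (S2). The sum of FPKM was 1099779 in leaf and lay between 723136 (S2) and 2515731 (S7) in seeds. In leaf, 50 consecutive rows (Ca_04614 to Ca_04666) were all listed at 0, although 15 of them had at least 5 FPKM at all 7 seed stages and the highest reached 8391 FPKM. Genes of that stretch could not meet the leaf minimum, and whether these are true zeros was not tested. Low values were also rarer at S2 than at any other stage for genes transcribed in leaf, as described below.

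The levels of the 51 genes in leaf were low for genes transcribed there. Their leaf value ranged from 5.09 to 29.3 FPKM with a median of 6.95 FPKM, while the 9095 genes with at least 5 FPKM in leaf had a median of 21.8 FPKM and a highest value of 13013 FPKM. The 51 genes were 0.561% of those 9095 genes and together held 435 FPKM, which was 0.0396% of the summed FPKM of leaf. Of the 51, 37 had 5 to 10 FPKM in leaf, 13 had 10 to 20 FPKM and 1 had 20 to 50 FPKM. No gene with 50 FPKM or more in leaf was among them, although 1121 genes had 50 to 100 FPKM, 1076 had 100 to 500 FPKM and 233 had 500 FPKM or more. In leaf the restricted genes thus lay at the low end of the range, which depended on the fixed seed limit, as described below. The 355 genes with every seed stage under 10% of leaf had a median of 49.6 FPKM in leaf.

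**Figure D1:**
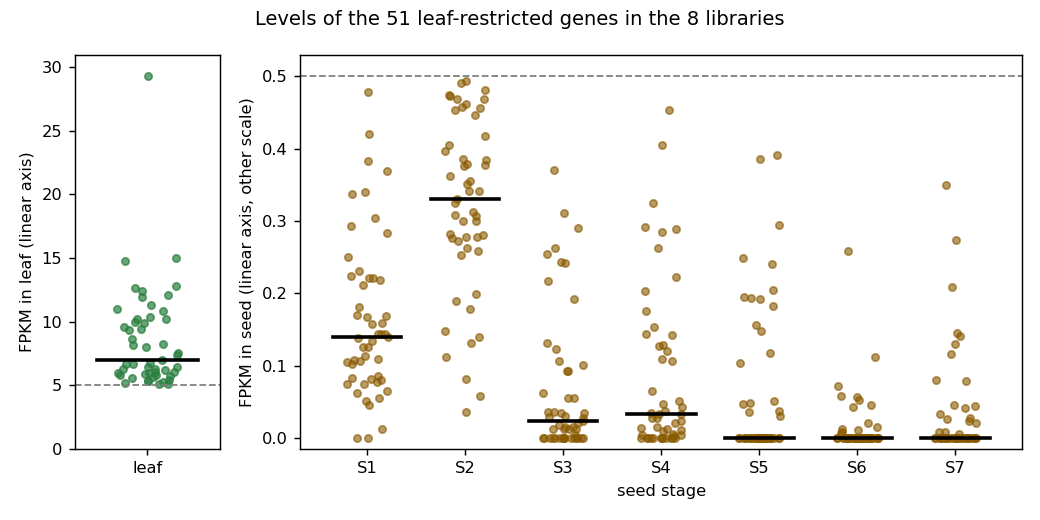
FPKM of the 51 leaf-restricted genes in leaf (left panel) and at seed stages S1 to S7 (right panel, with its own scale), 1 point per gene, with bars at the medians and dashed lines at the limits of 5 and 0.5 FPKM that chose the genes. The points lie highest in seeds at S2, where the median was 0.330 FPKM, and 31 (S5), 37 (S6) and 31 (S7) of the genes lie at 0 in maturing seeds.

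In seeds the summed signal of these genes was highest at S2. At S2 all 51 were above 0, with a median of 0.330 FPKM and a range of 0.0353 to 0.493 FPKM. At S1, 49 were above 0 with a median of 0.139 FPKM and a highest value of 0.478 FPKM. The values were lower from late-embryogenesis onwards. At S3, 35 genes were above 0 with a median of 0.0231 FPKM, and at S4, 39 genes were above 0 with a median of 0.0326 FPKM. The number above 0 was 20 at S5, 14 at S6 and 20 at S7, where the median was 0 at each of the 3 stages. Summed over the 51 genes, the level was 435 FPKM in leaf, against 8.37 FPKM at S1 and 16.4 FPKM at S2. It was 3.58, 4.46 and 3.30 FPKM at S3 to S5, 0.772 FPKM at S6 and 1.81 FPKM at S7. As background, 99.9% of the 9095 genes were above 0 at S1 and 100% after rounding (all but 1 gene) at S2. The share was 99.2% at S3 and 99.5% at S4, then 98.2%, 97.2% and 96.9% at S5 to S7.

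The stage of the highest seed value was S2 in 40 of the 51 genes. It was also S2 in 291 of the 355 genes with every seed stage under 10% of leaf, a set that includes the 51. Among the 51, it was S1 in 4 genes, S4 in 3, S5 in 2, and S3 and S7 in 1 gene each, and it was S6 in none. Low values were scarcest at S2 among all leaf genes, as described below. A highest seed value at S2 can therefore not be read as a trait of the 51. Relative to leaf, the highest seed value of a gene was 1.57% to 8.92% of its leaf value, with a median of 4.05%. By stage, the median was 1.78%, 3.70%, 0.263% and 0.401% of leaf at S1 to S4 and 0 from S5 to S7. On the log2(FPKM + 1) scale, the leaf value exceeded the highest seed value by 2.07 to 4.38 with a median of 2.61, a scale that understates differences of genes with low values.

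All 51 genes were more than 2-fold higher in leaf than at each seed stage on this scale, which the choice of genes fixed. Of all 23943 genes, those at least 2-fold higher in leaf were 3762 (15.7%) against S1, 3454 (14.4%) against S2, 3602 (15%) against S3, 3654 (15.3%) against S4, 3853 (16.1%) against S5, 4274 (17.9%) against S6 and 4600 (19.2%) against S7. A difference of that size against every stage was seen in 1732 genes (7.23%). The 51 genes were thus a small part of the genes with higher transcript levels in leaf.

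**Figure D2:**
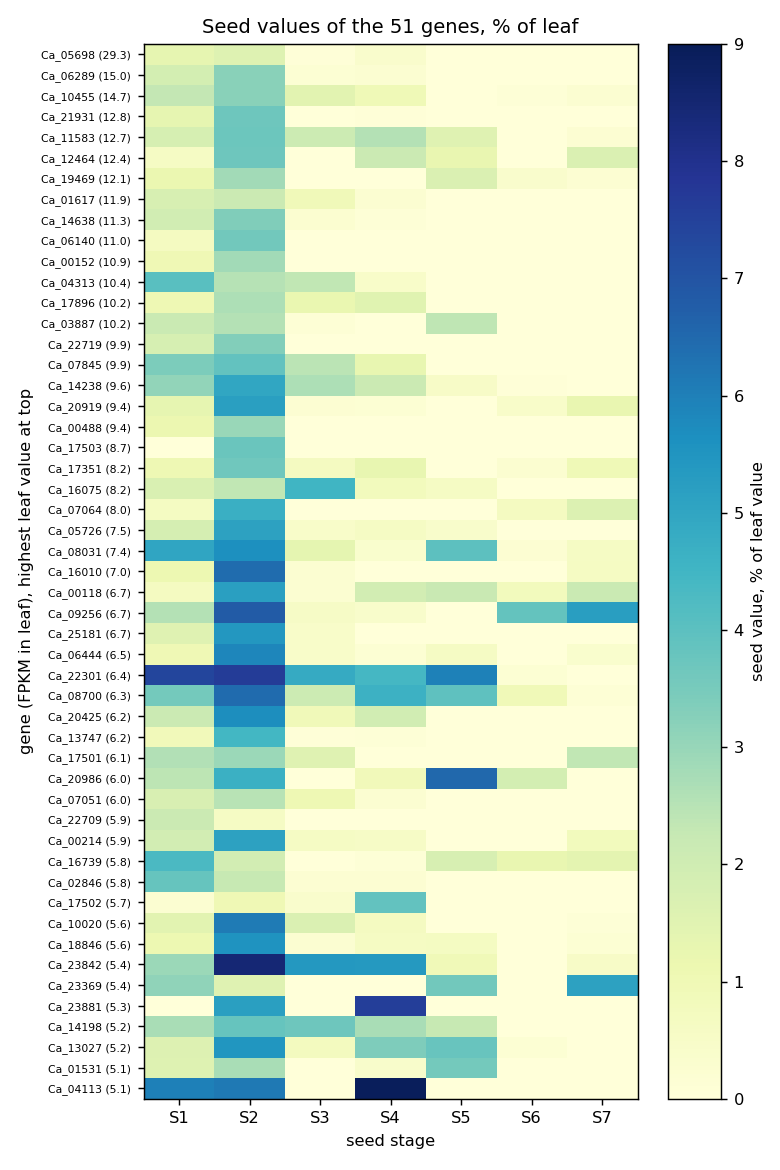
Seed value of each of the 51 genes as % of its leaf value (colour) at stages S1 to S7, with genes ordered by leaf FPKM (in brackets, highest at top). Every S2 value is above 0 (0.595% to 8.47% of leaf), and its lowest cells are pale. The S3 to S7 columns are pale for most genes, and the darkest cell is the S4 value of Ca_04113 at 8.92% of leaf.

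The gene with the highest leaf level was Ca_05698. It had 29.3 FPKM in leaf, against 0.383, 0.462, 0.0118 and 0.108 FPKM at S1 to S4 and 0 at S5 to S7. Its highest seed value was 1.57% of leaf, the lowest such share among the 51 genes. Ca_06289 had 14.97 FPKM in leaf, against 0.283, 0.481, 0.0231 and 0.0331 FPKM at S1 to S4 and 0 at the last 3 stages. Ca_10455 had 14.7 FPKM in leaf, against 0.338, 0.472, 0.217 and 0.143 FPKM at S1 to S4, 0 at S5, 0.0117 at S6 and 0.0335 at S7. These 3 genes shared a peak at S2 within the seed and values at or near 0 during maturation.

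Ca_21931 had 12.8 FPKM in leaf, against 0.169, 0.468, 0 and 0.0047 FPKM at S1 to S4 and 0 afterwards. Ca_01617 had 11.9 FPKM in leaf, against 0.212, 0.253, 0.107 and 0.0271 FPKM at S1 to S4 and 0 at the last 3 stages. Ca_14638 had 11.3 FPKM in leaf, against 0.221, 0.379, 0.0297 and 0.0094 FPKM at S1 to S4 and 0 afterwards. In each of the 3 genes the listed seed value was highest at S2, lower at S3 and S4, and 0 at S5 to S7. Values this low were of unknown precision. Ca_17896 had 10.2 FPKM in leaf, against 0.106, 0.273, 0.123 and 0.153 FPKM at S1 to S4. Ca_07845 had 9.92 FPKM in leaf, against 0.340, 0.386, 0.243 and 0.127 FPKM at S1 to S4. Ca_04313 had 10.4 FPKM in leaf, against 0.420, 0.262, 0.242 and 0.0469 FPKM at S1 to S4. All 3 were listed at 0 from S5 to S7, and of these only Ca_04313 was higher at S1 than at S2.

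Other members among the 20 highest in leaf had a low level in later seeds. Ca_11583 had 12.7 FPKM in leaf, against 0.230, 0.469, 0.263, 0.324 and 0.193 FPKM at S1 to S5, 0 at S6 and 0.0259 at S7. Ca_12464 had 12.4 FPKM in leaf, against 0.0741, 0.457, 0, 0.263, 0.157, 0 and 0.208 FPKM at S1 to S7. It was thus listed at 0 at S3 and S6, with low values before and after each. Ca_19469 had 12.1 FPKM in leaf, against 0.144 at S1, 0.341 at S2, 0 at S3 and S4, 0.204 at S5, 0.0451 at S6 and 0.0236 at S7. Ca_03887 had 10.2 FPKM in leaf, against 0.218, 0.258, 0.0128 and 0.0024 FPKM at S1 to S4, 0.241 at S5 and 0 at S6 and S7. For both genes S5 was the later stage with the highest value. Ca_14238 had 9.56 FPKM in leaf, against 0.293, 0.474, 0.255, 0.204, 0.0472 and 0.0064 FPKM at S1 to S6 and 0 at S7. Ca_20919 had 9.44 FPKM in leaf, against 0.126, 0.491, 0.0173 and 0.0147 FPKM at S1 to S4, 0 at S5, 0.0424 at S6 and 0.117 at S7.

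The genes differed in how far into seed development a signal was listed. Of the 51 genes, 6 (11.8%) were above 0 at S1 or S2 only, 16 (31.4%) were last above 0 at S3 or S4, and 29 (56.9%) were above 0 at S5, S6 or S7. The median leaf level was 9.66 FPKM (range 5.93 to 11.02) in the first set, 8.29 FPKM (5.09 to 29.3) in the second and 6.69 FPKM (5.13 to 14.7) in the third, so that the ranges overlapped. By number of stages, 1 gene was above 0 at 1 stage, 6 genes at 2 stages, 3 at 3, 17 at 4, 9 at 5, 12 at 6 and 3 at all 7 stages. Complete absence from the seed tables was therefore approached by few genes and reached by none. With the sequencing depth unknown, a listed 0 and a very low value cannot be told apart. The sets thus describe listed values and not a trait of the genes.

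The 6 genes with signal in early seeds only were listed at 0 from S3 to S7. Ca_17503 had 8.67 FPKM in leaf, against 0.325 FPKM at S2 and 0 at the other 6 stages, and was the single gene with 1 stage above 0. Ca_06140 had 11.02 FPKM in leaf, against 0.0746 at S1 and 0.396 at S2. Ca_00152 had 10.9 FPKM in leaf, against 0.109 at S1 and 0.307 at S2. In these genes the S2 value was again the higher of the early values. Ca_22719 had 9.95 FPKM in leaf, against 0.181 at S1 and 0.330 at S2. Ca_00488 had 9.38 FPKM in leaf, against 0.107 at S1 and 0.277 at S2. The sixth gene, Ca_22709, named after its values were seen, had 5.93 FPKM in leaf, against 0.126 at S1 and 0.0353 at S2. It was the exception among the 6 with S1 above S2, and its S2 value was the lowest of all 51 genes.

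The member with the highest value at each seed stage was in most cases a gene of modest leaf level. Ca_22301 had the highest value at both S1 and S2, with 6.45 FPKM in leaf, against 0.478, 0.493, 0.311, 0.285 and 0.385 FPKM at S1 to S5, 0.0106 at S6 and 0 at S7. It was thus above 0 at every stage but the last. Ca_16075 was highest at S3, with 8.19 FPKM in leaf, against 0.371 FPKM at S3. Ca_04113 was highest at S4, with 5.09 FPKM in leaf, against 0.453 FPKM at S4. Ca_20986 was highest at S5, with 6.01 FPKM in leaf, against 0.391 FPKM at S5. Ca_09256 was highest at S6 and S7, with 6.69 FPKM in leaf, against 0.259 FPKM at S6 and 0.350 FPKM at S7. The leaf level of each of these 5 genes lay between 5 and 10 FPKM.

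The genes just inside and outside the limits differed by little. The members with the lowest leaf values were Ca_04113 with 5.09 FPKM, Ca_01531 with 5.13 FPKM and Ca_13027 with 5.16 FPKM. The genes under 0.5 FPKM at all stages that came nearest below the leaf limit were Ca_17141 with 4.99 FPKM, Ca_15105 with 4.92 FPKM and Ca_23323 with 4.77 FPKM. On the seed side, the highest values inside were 0.493 FPKM in Ca_22301, 0.491 FPKM in Ca_20919 and 0.481 FPKM in Ca_06289, all at S2. The nearest outside were Ca_05464 with 0.503 FPKM at S6, Ca_23809 with 0.506 FPKM at S2 and Ca_24630 with 0.511 FPKM at S2. Ca_23809 had 15.7 FPKM in leaf and Ca_24630 had 9.07 FPKM in leaf.

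Looked at from the leaf, 7763 of the 9095 genes (85.4%) had at least 0.5 FPKM at every seed stage. There were 345 genes under 0.5 FPKM at 1 stage, 545 at 2, 157 at 3, 89 at 4, 87 at 5, 58 at 6 and 51 at all 7 stages. Of the 58 genes that missed at a single stage, 44 were above the limit at S2, 8 at S5, 2 each at S4, S6 and S7, and 0 at S1 or S3. For S5, Ca_07750 had 5.66 FPKM in leaf, against 21.0 FPKM at S5 and at most 0.353 FPKM at the other stages. Its S5 level was thus above its leaf level. For S4, Ca_05816 had 5.12 FPKM in leaf, against 0.691 FPKM at S4. For S6, Ca_06782 had 6.97 FPKM in leaf, against 1.01 FPKM at S6, and for S7, Ca_13863 had 5.37 FPKM in leaf, against 0.742 FPKM at S7. Each of these 3 values was above the limit and below the gene's own leaf value.

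For S2, the single-stage miss with the highest value was Ca_25380. It had 329 FPKM in leaf, against 236 FPKM at S2 and 0 at the other 6 stages. Its seed signal was thus confined to mid-embryogenesis in these tables, and whether the zeros at S1 and S3 are true was not tested.

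The limit was met least often at S2. Of the 9095 genes, 111 (1.22%) were under 0.5 FPKM at S2, against 330 at S1, 370 at S3, 310 at S4, 403 at S5, 845 at S6 and 1033 (11.4%) at S7. Relative to leaf, 3 genes (0.0330%) were under 1% of their leaf value at S2 and 67 (0.737%) at S1. The same count was 273 (3.00%) at S3, 224 (2.46%) at S4, 298 (3.28%) at S5, 699 (7.69%) at S6 and 847 (9.31%) at S7. Very low seed values relative to leaf were thus scarce in the early seeds, and scarcest at S2.

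**Figure D3:**
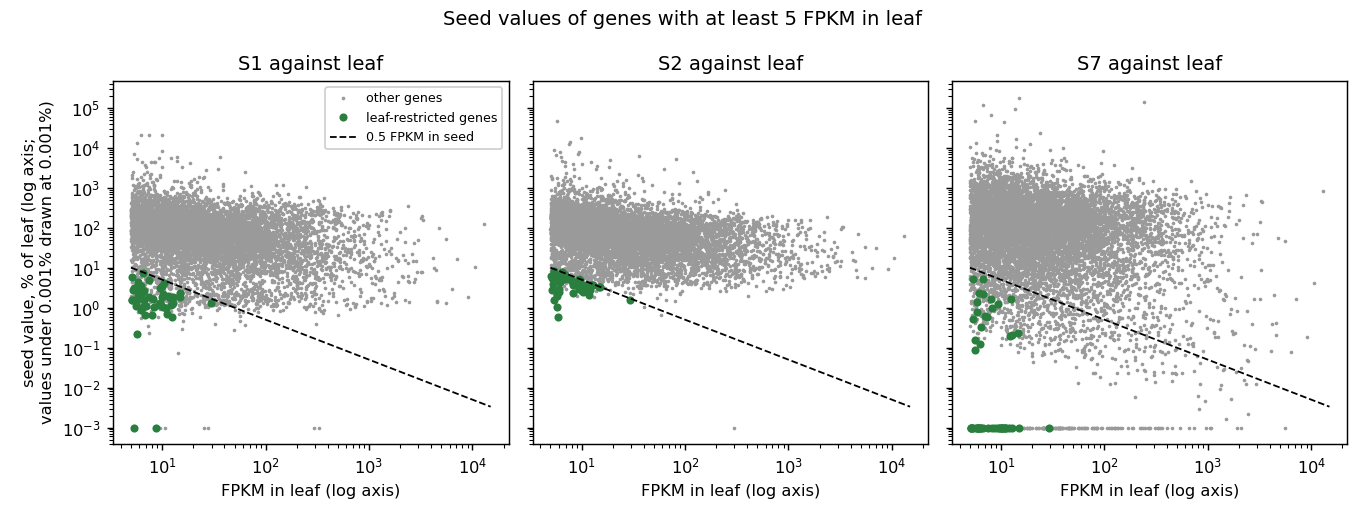
Value at S1, S2 and S7 as % of the leaf value, against leaf FPKM, for the 9095 genes with at least 5 FPKM in leaf (log axes, values under 0.001% drawn at 0.001%), with the 51 leaf-restricted genes in green and the 0.5 FPKM limit dashed. At S2 the 1st percentile of the points stays near 3% to 4% of leaf across the whole range, and single genes lie lower. The 0.5 FPKM limit thus falls below nearly all points once leaf exceeds 20 FPKM, whereas at S7 many points extend far below that limit.

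This lower edge, taken as the 1st percentile, changed little with the leaf level. The 1st percentile of the S2 value was 3.80% of leaf for genes with 5 to 10 FPKM in leaf, 3.79% for 10 to 20 FPKM, 4.08% for 20 to 50 FPKM, 3.44% for 50 to 100 FPKM, 3.64% for 100 to 500 FPKM and 3.01% for 500 FPKM or more. At S1 the corresponding values were 1.07%, 1.08%, 1.28%, 1.07%, 0.903% and 1.10%. Hence a gene with a high leaf level had a value above 0.5 FPKM in early seeds in nearly all cases, and the fixed seed limit selected genes of low leaf level. Among the 233 genes with 500 FPKM or more in leaf, the lowest S1 value was 0.903% of leaf and the lowest S2 value was 2.68% of leaf.

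Other library pairs did not all show this edge at S2. Of the genes with at least 5 FPKM at S7, 2.53% were under 1% of that value at S2, and for genes of S5 the share was 2.10% (193 of 9193). For genes of S3 it was 0.229%, and for genes of S1 it was 0.0207% (2 of 9656), which was below the 0.0330% of the leaf genes. The source of the early seed values of leaf genes was not tested, and they are not shown to be transcription in seed cells. If they are, bulk tissue cannot tell few cells with a high level from many cells with a low level.

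The genes that a limit relative to leaf would choose were more numerous and had higher leaf levels. With every seed stage under 10% of the leaf value, 355 of the 9095 genes (3.9%) were found, and the limits themselves place all 51 restricted genes among them. Of the other 304, 300 exceeded 0.5 FPKM at S2 and 236 at S1, 35 exceeded it at S2 only and 38 at S1 and S2 only. Their median value was 1.89% and 6.20% of leaf at S1 and S2, 1.32%, 1.44% and 1.13% at S3 to S5, and 0.249% and 0.145% at S6 and S7. The highest in leaf, named after its values were seen, was Ca_26679 with 5547 FPKM in leaf, against 71.8, 311, 1.11, 0, 0.895, 0.0390 and 0 FPKM at S1 to S7. This gene was excluded by its early seed values, and to a lesser degree by S3 and S5.

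Among genes with little or no seed signal, few had 5 FPKM or more in leaf. There were 8296 genes under 0.5 FPKM at all 7 seed stages, of which 6531 were listed at 0 in leaf, 301 had at least 0.5 FPKM, 216 had at least 1 FPKM and 51 (0.615%) had at least 5 FPKM in leaf. At 0 at all 7 seed stages were 4921 genes, of which 2 had at least 1 FPKM in leaf and 0 had at least 5 FPKM. These 2 genes, named after their values were seen, were Ca_17500 with 3.11 FPKM and Ca_17506 with 1.34 FPKM in leaf. For leaf values of 5 FPKM or more, S2 bounded both counts. Of the 9095 leaf genes, 111 were under 0.5 FPKM at S2 and 1 was at 0 there.

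Identifier numbers, which the choice did not use, placed 3 of the 51 genes side by side. These were Ca_17501, Ca_17502 and Ca_17503, the only members with a neighbouring number among the members (5.88%), while 37 of the other 9044 leaf genes (0.409%) had a number next to a member. No genome position is claimed from the numbers. Ca_17501 had 6.06 FPKM in leaf, against 0.157, 0.178 and 0.0931 FPKM at S1 to S3, 0 at S4 to S6 and 0.141 FPKM at S7. Ca_17502 had 5.74 FPKM in leaf, against 0.0127, 0.0581, 0.0209 and 0.223 FPKM at S1 to S4 and 0 afterwards. Ca_17503 was the gene with S2 as its single stage above 0.

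Of the numbers around this run, chosen after their values were seen, some were also far higher in leaf than in seeds and others were not. Ca_17500 and Ca_17506 were the pair listed at 0 throughout the seed. Ca_17504 had 24.7 FPKM in leaf, against 1.10, 0.888, 0.0271, 0.0674, 0, 0.0935 and 0.0773 FPKM at S1 to S7, and missed the seed limit at S1 and S2. Ca_17505 had 3.48 FPKM in leaf, against 0.127 at S1, 0.193 at S2 and 0 at S3 to S7. Ca_17499 had 3.05 FPKM in leaf, against 0.0520 at S1, 0.205 at S2 and 0 from S3 on. Ca_17498 had 1.47 FPKM in leaf, against at most 0.193 FPKM in seeds. All of Ca_17498 to Ca_17506 were higher in leaf than at any seed stage. The next number, Ca_17507, did not share this, since its 2 rows had 1.01 and 0.875 FPKM in leaf, against 1.43 and 1.58 FPKM at S5. Ca_17508 had 5.98 FPKM in leaf, against 1.19 FPKM at S3, and Ca_17510 had 25.5 FPKM in leaf, against 5.35 FPKM at S3. Both were thus higher in leaf than at any seed stage. So was Ca_17509, with 4.13 FPKM in leaf, against at most 0.342 FPKM in seeds. Ca_17510 was above the seed limit at each of S1 to S5. Ca_17508 was above it only at S2 (0.602 FPKM) and S3, with 0.474 FPKM at S1 and 0.476 FPKM at S4. Genes with near-identical copies can share reads, and how the authors' mapping divided such reads is not given in the sources used here.

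The members were also looked up in the lists of biological processes that the study tied to methylation or expression changes. Of 2130 genes in any of these lists, 2 (0.0939%) were leaf-restricted, against 0.213% of all 23943 genes. Ca_01617 was in the cell cycle list (1 of 337 genes), and its values are given above. Ca_16010 was in the differentiation list (1 of 718 genes), with 6.95 FPKM in leaf, against 0.0774, 0.447 and 0.0154 FPKM at S1 to S3, 0 at S4 to S6 and 0.0420 FPKM at S7. The lists for cell growth (176 genes), desiccation (148), grain filling (167) and QTLs (891) held 0 of them. The study defined the process lists by gene ontology term and the QTL list by seed size/weight. It used them for methylation and expression changes in seeds, while the choice here kept only genes under 0.5 FPKM at every seed stage. The 2 shares are therefore not on the same footing, and counts this small show no difference. The lists are also incomplete as an annotation.

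With the same limits applied to each library in turn, leaf had the most restricted genes. Against the 51 of leaf, there were 5 genes restricted to S1, 2 to S4 and 16 to S5, and 0 to S2, S3, S6 or S7. These numbers are not on the same footing, because a seed stage was compared with its own neighbouring stages and leaf was the single library that was not seed. The reverse pattern, under 0.5 FPKM in leaf and at least 5 FPKM at all 7 seed stages, was seen in 28 genes, of which 10 lay in the stretch of 50 rows listed at 0 in leaf. The 3 with the highest lowest-stage values were Ca_04636 and Ca_04635 of that stretch, both listed at 0 in leaf, and Ca_22996, with 0.136 FPKM in leaf, against 40.1 to 563 FPKM in seeds.

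**Figure D4:**
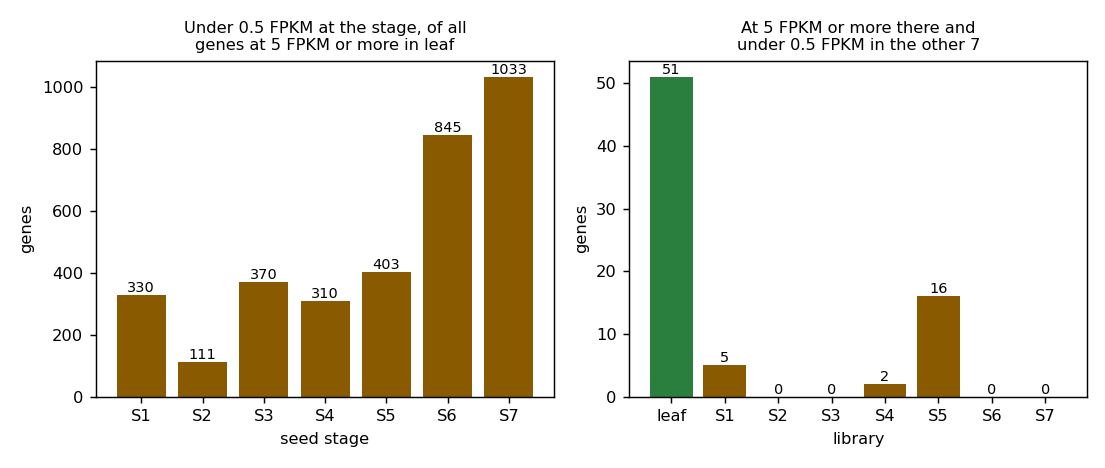
Number of the 9095 leaf genes under 0.5 FPKM at each seed stage (left panel) and number of genes with at least 5 FPKM in 1 library and under 0.5 FPKM in the other 7 (right panel, leaf first). S2 has the fewest genes under the limit (111) and S7 the most (1033), and leaf has 51 restricted genes, against 16 at S5 and at most 5 at the other stages.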

How the data were processed

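Reads of leaf and seed were filtered by the authors with NGS QC Toolkit and mapped with TopHat, and the FPKM values they deposited were computed with Cufflinks. The genome build of these reads is not given in the sources used here. The 3 replicates of a tissue were merged by the authors into 1 value, in a way that is not given in the sources used here.

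Of 35234 rows per table, 26305 carried a single chickpea identifier, and 23943 of these identifiers occurred once and were used. Rows that join several identifiers (1661), that repeat an identifier (2362) or that have no identifier (7268) were left out. An exact 0 can be a failed estimate, so that such genes are said to be listed at 0. Fold differences were taken on log2(FPKM + 1) and counted at 2-fold. Since no replicate values were used, no SD, test or interval was calculated. Process lists were read from the process column of the study's supplementary lists, without their values.

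The members and lists were chosen with earlier results of these data known. The genes named were the 20 members with the highest leaf values, those nearest to either limit (3 on each side), the highest member at each seed stage, the highest single-stage miss for each stage, members in process lists or in runs of identifier numbers, members at 0 in all seed stages (0 found), members named in the paper's text (0 found) and the 3 leading genes of the reverse pattern. Other genes were named after their values were seen. Alternatives were other limits, scalings and pseudocounts, joined or repeated identifiers, and single stages left out. Python 3.11.15, numpy 2.4.6, pandas 2.3.3 and matplotlib 3.10.9 were used.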

Additional observations from a re-analysis of the deposited data

Results flagged for a closer look

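Rows without a gene identifier, which were left out of the gene values, also held the pattern. In 26 of them leaf had at least 5 FPKM and all 7 seed stages were under 0.5 FPKM. They were 3.20% of the 813 such rows with at least 5 FPKM in leaf, against 0.561% of the 9095 genes. Their leaf values ranged from 5.01 to 22.8 FPKM with a median of 7.63 FPKM, 20 of them had their highest seed value at S2, and 1 was listed at 0 at all 7 seed stages. Whether these rows are genes was not tested.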

How the results depend on the processing

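No paired analysis was possible because replicates of a tissue had been merged into 1 value, and the planned fits with a replicate block or without each replicate were not run for the same reason. The number of leaf-restricted genes (51) stayed within 1.5 times under upper quartile scaling (39, of which only 36 were among the 51) and median ratio scaling (54). It also stayed within 1.5 times with repeated or joined identifiers (52 each) and without S1 (51), S3 (51), S4 (53), S5 (59), S6 (53) or S7 (53). It moved to 92 and 14 with a leaf minimum of 3 and 10 FPKM, to 7, 119 and 0 with a seed maximum of 0.25 FPKM, 1 FPKM and listed at 0, to 27 with all libraries scaled to the same sum (22 of them among the 51), and to 95 without S2. Alternatives chosen after seeing the data gave 141 without S1 and S2, 355 with seeds under 10% of leaf and 109 with seeds under 5% of leaf (31 of the 51 among them). In the same order, the share of genes in leaf (0.561%) was 0.887%, 0.200%, 0.0770%, 1.31%, 0%, 0.297%, 1.04%, 1.55%, 3.90% and 1.20%. The median leaf level (6.95 FPKM) moved to 12.0 FPKM with a leaf minimum of 10, 11.9 FPKM without S1 and S2, 49.6 FPKM under 10% and 42.8 FPKM under 5% of leaf. The share of summed leaf FPKM (0.0396%) moved to 0.0168% with a leaf minimum of 10, to 0.00363%, 0.105% and 0% with the 3 seed limits, to 0.0170% with the same sum, to 0.129% without S2, 0.433% without S1 and S2, 7.33% under 10% and 1.24% under 5% of leaf. The cause of these shifts, other than the change of limit itself, was not tested.

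The median log2 ratio of leaf over the highest seed stage (2.61) was 4.16 and 4.59 with pseudocounts of 0.1 and 0.01. Genes 2-fold higher in leaf moved to 5800 (S5), 6798 (S6) and 7122 (S7) with a pseudocount of 0.01 and to 6037 (S5) with the same sum. With a minimum of 10 FPKM the genes restricted to a single library moved to 14 (leaf), 1 (S4) and 6 (S5). With a maximum of 1 FPKM they moved to 119 (leaf), 1 (S2), 5 (S3), 5 (S4), 25 (S5) and 2 (S6). Without counts or replicates, values near the limit of 0.5 FPKM cannot be told apart from it by any error estimate.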

Other observations

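Genes with high leaf levels and little signal after mid-embryogenesis were a group that the fixed limits left out. There were 27 genes with at least 100 FPKM in leaf and under 1% of that value at each of S3 to S7. At S1 their median was 1.22% of leaf (0 to 2.47%), and at S2 it was 4.84% of leaf, with a range of 1.94% to 71.5% whose upper end was Ca_25380. Among them, Ca_12563 had 2444 FPKM in leaf, against 34.7 at S1, 205 at S2 and at most 1.86 FPKM at S3 to S7, and Ca_03507 had 2248 FPKM in leaf, against 34.8 at S1, 128 at S2 and at most 1.28 FPKM at S3 to S7. Both were named after their values were seen.

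The genes restricted to S5 were the next most numerous after those of leaf. The highest, Ca_18730, had 34.3 FPKM at S5, against 0 in leaf and at most 0.185 FPKM at the other seed stages. Of the 5 genes restricted to S1, Ca_26976 had 242 FPKM at S1, against 0 in leaf and at most 0.402 FPKM at the other seed stages. These genes, too, were named after their values were seen.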
